A study of Mus musculus with 61 samples.

Results

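The hypothalamus and the periaqueductal gray (pag) of male mice were compared on 24 of the 61 arrays of the series, 12 of the hypothalamus and 12 of the pag, chosen by the region that each sample title names. Both regions were taken from C57BL/6J, FVB/NJ, A/J, DBA/2J, 129S6/SvEvTac and C3H/HeJ mice, with 2 arrays for each strain and region. All mice were untreated, wild type and 8 weeks old, and the 129S6/SvEvTac mice came from another supplier than the other 5 strains. Each array held RNA pooled from 2 mice, except replicate 2 of the FVB/NJ hypothalamus and replicate 2 of the A/J pag, which held RNA of 1 mouse. The other regions of the series, the bnst (bed nucleus of the stria terminalis), the hippocampus and the pituitary gland, were used only to place the genes with the largest differences.

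The hypothalamus lies at the base of the forebrain, and its neurons make peptides that control the pituitary gland, feeding, arousal and water balance. The pag surrounds the midbrain aqueduct and takes part in pain control and defensive behavior, and the serotonin neurons of the dorsal raphe lie within its ventral part. Neurons of both regions keep expressing transcription factors that marked their territory in the embryo, the Dlx and Nkx2 families in the ventral forebrain and the Engrailed, Gata and Irx families in the midbrain and hindbrain.

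The assay was the Affymetrix mouse genome 430 2.0 array. Its signal for a probe set (a group of short probes against 1 transcript) is a background-corrected intensity on a linear scale that can fall below 0. Signals under 12.8, the 20th percentile of all values of the 61 arrays, were set to that floor before log2 was taken, which compresses differences of low signals. A difference below is the log2 signal of the hypothalamus minus that of the pag with strain as a block, and a probe set was called when limma's Benjamini-Hochberg adjusted P was under 0.05. Beyond 1 standard error (SE), the spread is given by the lowest, the median and the highest of the 12 arrays of a region. In dissected tissue, fewer cells of a type and less RNA in each cell cannot be told apart. Mean signals per array were alike, between 187.5 and 199.6 in the hypothalamus and between 188.6 and 199.1 in the pag. The median signal was highest in replicate 2 of the 129S6/SvEvTac pag (65.0), replicate 1 of the C3H/HeJ pag (62.7) and replicate 2 of the 129S6/SvEvTac hypothalamus (60.7), and these 3 arrays also correlated least with the other arrays of their region (r = 0.948, 0.952 and 0.927).

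The regulatory sequences of 5 genes are shown first, all from among the 20 largest differences in their direction and chosen after their values were seen, to set hypothalamic peptide genes beside serotonin genes. They are the 250 bases before the start site of the vasopressin gene Avp, the oxytocin gene Oxt and the orexin gene Hcrt, which were high in the hypothalamus, and of the serotonin genes Tph2 and Slc6a4, which were high in the pag. The sequences are those of RefSeq on build GRCm38.p6, at chr2:130582589-130582838 on the minus strand for Avp, chr2:130575919-130576168 on the plus strand for Oxt, chr11:100762932-100763181 on the minus strand for Hcrt, chr10:115185023-115185272 on the minus strand for Tph2 and chr11:76998347-76998596 on the plus strand for Slc6a4. Capitals mark matches on either strand to 4 motifs. The nuclear receptor site was searched as AGGTCA. The core of the cAMP response element (CRE) was searched as TGACG. The site of GATA factors was searched as GATAA. The core bound by many homeodomain proteins was searched as TAATTA.
Avp: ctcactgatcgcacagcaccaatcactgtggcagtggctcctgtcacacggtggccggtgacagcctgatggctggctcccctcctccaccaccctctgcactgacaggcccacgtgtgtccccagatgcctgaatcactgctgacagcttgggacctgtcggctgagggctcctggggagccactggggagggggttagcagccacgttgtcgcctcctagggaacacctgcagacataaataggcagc
Oxt: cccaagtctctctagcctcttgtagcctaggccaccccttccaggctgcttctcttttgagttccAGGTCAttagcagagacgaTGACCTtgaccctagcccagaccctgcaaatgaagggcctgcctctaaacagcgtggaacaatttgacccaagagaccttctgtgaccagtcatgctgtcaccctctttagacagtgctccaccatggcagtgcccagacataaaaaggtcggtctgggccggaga
Hcrt: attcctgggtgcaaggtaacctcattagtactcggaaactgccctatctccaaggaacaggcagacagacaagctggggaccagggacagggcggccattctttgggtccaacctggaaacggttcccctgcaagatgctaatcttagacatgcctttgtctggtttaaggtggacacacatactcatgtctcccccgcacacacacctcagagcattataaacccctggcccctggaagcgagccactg
Tph2: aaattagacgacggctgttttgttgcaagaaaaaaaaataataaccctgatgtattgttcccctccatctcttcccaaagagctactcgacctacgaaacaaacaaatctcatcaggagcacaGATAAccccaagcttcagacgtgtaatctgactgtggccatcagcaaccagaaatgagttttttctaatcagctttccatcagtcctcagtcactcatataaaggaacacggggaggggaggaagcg
Slc6a4: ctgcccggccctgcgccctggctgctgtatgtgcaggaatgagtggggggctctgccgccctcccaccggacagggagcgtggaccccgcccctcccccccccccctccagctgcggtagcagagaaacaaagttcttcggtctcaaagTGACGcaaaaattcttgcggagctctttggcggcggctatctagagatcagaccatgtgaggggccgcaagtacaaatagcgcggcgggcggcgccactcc
The Oxt promoter holds the nuclear receptor site at 185 bases before the start and its reverse complement at 166, the Tph2 promoter holds the GATA site at 127, and the Slc6a4 promoter holds the CRE core at 101. None of the 4 motifs is in the windows of Avp and Hcrt. Among all 32851 promoters of the table, in windows of the same length, 14% hold the nuclear receptor site, 17.8% the CRE core, 22.6% the GATA site and 4.84% the homeodomain core. Of the 20 genes with the largest higher signal in the hypothalamus, 19 had a promoter in the table, and the nuclear receptor site was in 4 of them, the CRE core in 3, the GATA site in 7 and the homeodomain core in 2. The 16 promoters found for the 20 genes with the largest lower signal held the nuclear receptor site in 0 cases, the CRE core in 5, the GATA site in 3 and the homeodomain core in 1. A match of letters is a description of the sequence only.

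The peptide genes of the magnocellular and releasing-hormone neurons were the most strongly raised group in the hypothalamus. Of 6 measured, Avp, Oxt, Trh, Ghrh and Sst were called higher, Crh was not called, and the median difference was 2.73. Of all 43262 probe sets tested, 11% were called higher and 12% lower (22.9% in all), with a median difference of -0.04. List members are genes, each given by its brightest probe set. Taken in that way, 13.5% of all 17730 genes were called higher and 14.9% lower. These are the shares to set beside the counts of each list in the text. Avp, the precursor of the antidiuretic hormone vasopressin, had signals from 4671 to 7056 (median 5184) in the hypothalamus and from 23.1 to 68.7 (median 44.6) in the pag. Its difference of 6.98 (SE 0.125, adjusted P = 6.38e-20, limma) was the largest of all probe sets at the floor used, and no array of either region came near the other. With a lower floor, at the 10th percentile, the serotonin genes Tph2 (-7.55) and Slc6a4 (-7.49) differed by more than Avp (6.98). Oxt, the precursor of oxytocin, ranged from 2545 to 4627 (median 3116) in the hypothalamus and from 98.4 to 202.3 (median 151.3) in the pag. The arrays again did not overlap, and the difference was 4.49 (SE 0.0927, adjusted P = 8.99e-19, limma). Trh, the thyrotropin-releasing hormone, lay between 346.2 and 488.7 (median 429.6) in the hypothalamus and between 37.1 and 75.9 (median 55.3) in the pag, higher by 2.95 (SE 0.102, adjusted P = 9.17e-15, limma). Ghrh, the growth hormone-releasing hormone, was higher by 2.52 (SE 0.19, adjusted P = 2.79e-09, limma), and Sst, somatostatin, by 0.84 (SE 0.0594, adjusted P = 1.09e-09, limma), with signals of 989.4 to 1295 in the hypothalamus and 524.4 to 827.3 in the pag. All 5 called genes were higher on every hypothalamus array than on any pag array, as were 1.02% of all probe sets. Crh, the corticotropin-releasing hormone, had overlapping signals of 30.2 to 90.1 in the hypothalamus and 32.7 to 81.7 in the pag, with a difference of 0.08 (adjusted P = 0.81, limma).

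Peptides of feeding and arousal followed, with 6 of 10 measured genes called higher, 0 called lower and a median difference of 2.25. Pmch, the precursor of melanin-concentrating hormone in neurons of the lateral hypothalamus, had signals from 3038 to 4981 (median 4433) in the hypothalamus and from 54.2 to 98.9 (median 67.5) in the pag. The 2 ranges were far apart, and the difference was 5.94 (SE 0.0933, adjusted P = 5.5e-21, limma). Hcrt, the precursor of the wake-promoting orexins, ranged from 310.4 to 1783 (median 1192) in the hypothalamus and from 5.63 to 39.1 (median 26.9) in the pag, with a difference of 5.31 (SE 0.22, adjusted P = 1.96e-13, limma). The lowest hypothalamus array was replicate 2 of FVB/NJ, the one made from a single mouse, and without it the difference of Hcrt was 5.47. Galanin (Gal) was higher by 2.68 (SE 0.19, adjusted P = 1.04e-09, limma) and neuropeptide Y (Npy) by 2.23 (SE 0.0915, adjusted P = 1.68e-13, limma), and neither overlapped between the regions. Npvf, the precursor of RFamide-related peptides, was higher by 2.78 (SE 0.269, adjusted P = 9.88e-08, limma), with ranges that touched, from 54.8 to 317.6 in the hypothalamus and from -0.18 to 59.1 in the pag. The 4 genes that were not called were Cartpt, Vgf, Nmu and Prok2. Cartpt, the precursor of CART peptides, had signals from 997.9 to 1454 in the hypothalamus and from 641.1 to 2248 in the pag, a wide range that enclosed the other, with a difference of -0.13 (adjusted P = 0.651, limma).

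Pomc, the precursor of melanocortins, beta-endorphin and corticotropin, was higher in the hypothalamus by 2.28 (SE 0.269, adjusted P = 1.52e-06, limma) in the probe set with the highest mean and by 3.34 in its other probe set. In the first, signals ranged from 281.7 to 1080 (median 521.8) in the hypothalamus and from 59.1 to 522.4 (median 95) in the pag. The pag array that overlapped was replicate 1 of FVB/NJ, and the next highest pag array had 187.4. The same array held pituitary hormone signals, described below. Without it the difference of Pomc was 2.46. Summed signals of pituitary genes were also high on hypothalamus arrays, at 6688 and 6259 in A/J and 9116 on replicate 1 of C57BL/6J. The other Pomc probe set had 702.5 and 912.6 on these A/J arrays and 410.0 on that C57BL/6J array. It had 602.6 on replicate 1 of the 129S6/SvEvTac hypothalamus, where the pituitary sum was lowest (2006). Its mean in the pituitary gland was 8893. The part of pituitary tissue in the Pomc values was not tested.

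**Figure D1:**
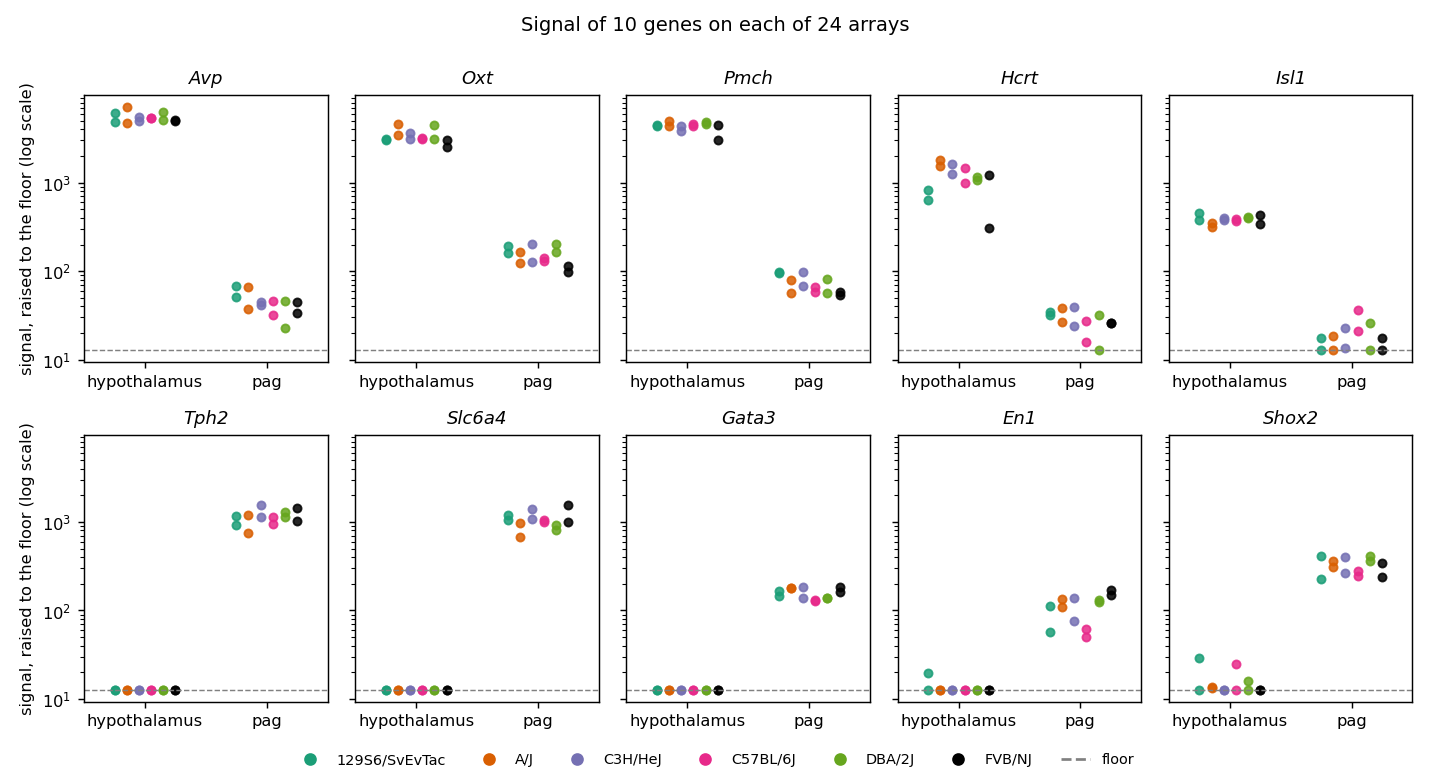
Signal (log scale, values under 12.8 raised to that floor, dashed line) of 10 genes on the 12 hypothalamus arrays (left in each panel) and the 12 pag arrays (right), each point 1 array and each color 1 strain. The 5 genes of the upper row were higher on every hypothalamus array than on any pag array, and those of the lower row were lower on every hypothalamus array, with Tph2, Slc6a4 and Gata3 at the floor on all 12.

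Serotonin genes gave the largest lower differences. None of the 13 measured genes was called higher in the hypothalamus, 10 were called lower, 7 of them without overlap of the arrays (1.16% of all probe sets), and the median was -0.86. Tph2, the enzyme that limits serotonin synthesis in neurons, had signals from -0.20 to 10.7 (median 4.56) in the hypothalamus and from 750.6 to 1542 (median 1139) in the pag. Every hypothalamus array was under the floor, and with the floor in place of those signals Tph2 differed by -6.45 (SE 0.0834, adjusted P = 2.92e-22, limma), at least 87.7-fold lower. Slc6a4, the serotonin transporter, had signals from -6.63 to 12.6 (median 3.94) in the hypothalamus and from 676.5 to 1551 (median 1021) in the pag. It too was under the floor on all 12 hypothalamus arrays and thus at least 80.7-fold lower (adjusted P = 6.64e-22, limma). Gch1, which makes the cofactor of tryptophan hydroxylase, was lower by a difference of -2.09 (SE 0.105, adjusted P = 4.27e-12, limma) in its brighter probe set. Gchfr, the regulatory protein of that enzyme, differed by -3.28 (SE 0.234, adjusted P = 1.16e-09, limma). The genes shared by all monoamine neurons were lower but well above the floor in the hypothalamus. Slc18a2, the vesicular monoamine transporter, had signals of 220.4 to 317.5 in the hypothalamus and 586.3 to 1075 in the pag (difference -1.61), and Ddc, the decarboxylase of serotonin and dopamine synthesis, 552.9 to 793.3 in the hypothalamus and 1299 to 2270 in the pag (difference -1.45). Among the receptors, Htr1a, Htr1d, Htr2c and Htr5b were called lower, with differences from -1.35 for Htr5b to -0.55 for Htr1d. Htr1b, Htr3a and Htr7 were not called, with differences of -0.08, -0.27 and 0.09.

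Of 14 genes of dopamine and noradrenaline neurons, 9 were called lower, 1 higher (the receptor Drd1, 0.88) and the median was -0.60. Slc6a2, the noradrenaline transporter, had signals from -1.34 to 22.1 (median 10.9) in the hypothalamus and from 30.2 to 538.5 (median 160.5) in the pag, and Dbh, which makes noradrenaline, from 27.2 to 72.6 in the hypothalamus and from 57.2 to 403.4 in the pag. Both were highest on replicate 1 of the C57BL/6J pag, and their differences were -3.20 (SE 0.357, adjusted P = 7.13e-07, limma) and -1.90 (SE 0.259, adjusted P = 1.07e-05, limma). Slc6a3, the dopamine transporter, ranged from 35.6 to 160.2 (median 58.0) in the hypothalamus and from 79.0 to 1116 (median 112.0) in the pag, with a difference of -1.33 (SE 0.28, adjusted P = 0.00126, limma). Replicate 1 of the 129S6/SvEvTac pag gave the 1116, against 322.2 on the next highest array. Without it the difference was -1.09, still called. With all arrays, the call of Slc6a3 was lost in an ordinary regression on the signals (adjusted P = 0.227). The same array was highest for Th, the first enzyme of dopamine synthesis (1139), for the receptor Ret (619.2) and for the transcription factor Foxa2 (139.8), which are all known from midbrain dopamine neurons. Th was not called with it (-0.19, adjusted P = 0.603, limma) or without it (0.00, adjusted P = 0.994), while Ret (-0.89) and Foxa2 (-0.88) were called lower without it as well. Foxa2 was at the floor on all 12 hypothalamus arrays and at least 2.17-fold lower, and its call was lost with the floor at the 40th percentile (-0.36, adjusted P = 0.141) and without the strain A/J (-1.07, adjusted P = 0.053) or FVB/NJ (-0.90, adjusted P = 0.0761). The part of this array's dopamine neuron signals in other differences was not tested.

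Lists of transcription factors from the 2 embryonic territories mostly differed in opposite directions. Their members were chosen with earlier results of these data known. Of 25 measured factors of the hypothalamus and ventral forebrain, 20 were called higher, 2 lower (Lhx9 and Pou3f2) and the median was 1.24. Isl1, a LIM homeodomain factor of arcuate and other ventral forebrain neurons, had signals from 311.8 to 452.3 (median 383.9) in the hypothalamus and from 1.68 to 36.8 (median 17.7) in the pag. With a difference of 4.43 (SE 0.143, adjusted P = 3.16e-15, limma) it led the group, and its arrays did not overlap. Dlx1 and Dlx2, homeobox genes of forebrain GABAergic neurons, were higher by 4.10 (SE 0.152, adjusted P = 3.23e-14, limma) and 2.98 (SE 0.13, adjusted P = 4.54e-13, limma), and their relatives Dlx5 and Dlx6 by 1.16 and 1.24. Sim1 and Otp, which are needed for neurons of the paraventricular nucleus, were higher by 2.48 and 1.81, and Nkx2-1, Six3, Six6, Vax1 and Fezf1, which pattern the hypothalamus and its neighbors, by 1.40 (Six3) to 3.20 (Fezf1). Nkx2-4, a relative of Nkx2-1 outside the list, had signals of 67.7 to 122.3 in the hypothalamus and was at the floor on 11 of the 12 pag arrays, and with the floor in place of those signals it was at least 6.77-fold higher (adjusted P = 6.28e-14, limma). The size rests on the floor, and the log2 difference was 4.04 with the floor at the 10th percentile and 1.36 at the 40th. Nr5a1, a factor of the ventromedial nucleus, Rax, a factor of tanycytes and retina, and Fezf2, a forebrain factor, had low, overlapping signals with medians of 23.8, 3.73 and 8.91 in the hypothalamus, and 25.8, 5.16 and -2.81 in the pag, and were not called.

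Factors of the midbrain and hindbrain ran the other way, with 23 of 35 called lower, 0 called higher and a median of -0.88. Gata3, a factor of serotonin and midbrain GABAergic neurons, had signals from -10.2 to 4.69 in the hypothalamus and from 127.0 to 185.4 in the pag. All 12 hypothalamus arrays were under the floor, and Gata3 was at least 12.1-fold lower (adjusted P = 1.46e-17, limma). Its partners in GABAergic neurons, Tal1 and Gata2, differed by -3.14 (SE 0.165, adjusted P = 9.14e-12, limma) and -0.83 (SE 0.0794, adjusted P = 9.09e-08, limma). En1 and En2, the Engrailed genes of the midbrain and hindbrain, differed by -2.94 (SE 0.171, adjusted P = 4.29e-11, limma) and -3.15 (SE 0.149, adjusted P = 1.58e-12, limma), and En1 was at the floor on 11 of the 12 hypothalamus arrays, so that its value is a lower bound of the size. Otx2, a factor of the forebrain and midbrain, had signals of 4.85 to 23.9 in the hypothalamus and 77.5 to 190.6 in the pag (difference -2.88). Pax7, a factor of the dorsal midbrain, was at the floor on all 12 hypothalamus arrays and at least 5.37-fold lower. Irx1, Irx2, Irx3 and Irx5 were all called lower, by -1.25 for Irx5 to -2.25 for Irx2, as were Ebf1, Ebf2 and Ebf3, by -1.28 for Ebf3 to -1.82 for Ebf2. Lmx1b, which serotonin neurons need, differed by -1.07. The 12 factors that were not called included Pax6, Hoxa2, Hoxb2 and Lmx1a, all with overlapping arrays. Shox2, a homeobox gene outside the list, had signals from 5.26 to 28.9 (median 10.5) in the hypothalamus and from 223.9 to 407.9 (median 324.0) in the pag (-4.40, SE 0.156, adjusted P = 1.57e-14, limma).

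**Figure D2:**
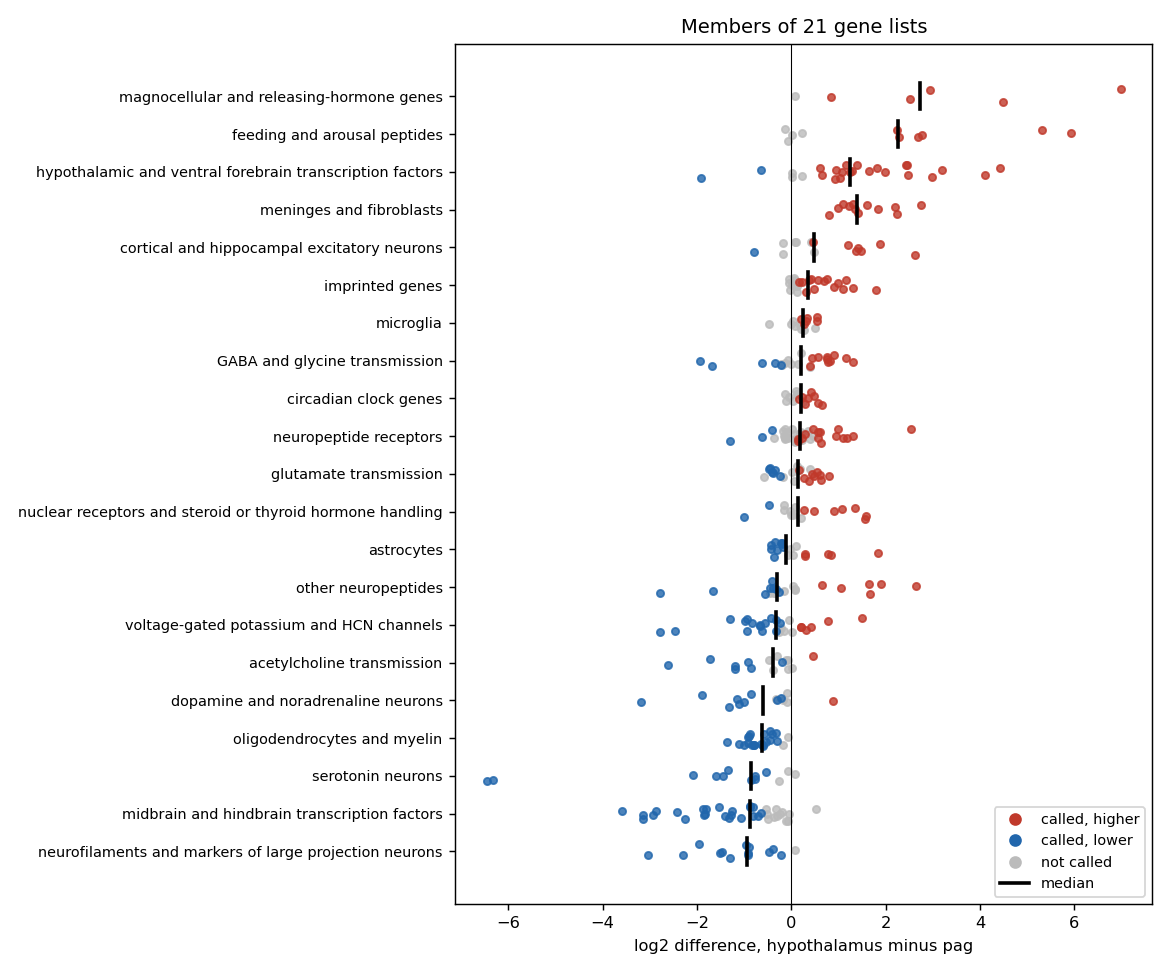
Log2 difference, hypothalamus minus pag, of each measured member of 21 of the 32 gene lists (points, red called higher, blue called lower, gray not called) with the median of the list (black bar). The lists not shown had medians from -0.188 (endothelial cells and pericytes) to 0.235 (striatal neurons). Medians ran from 2.73 for the magnocellular and releasing-hormone genes to -0.95 for the neurofilament list, beside -0.04 over all probe sets.

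Among 22 other neuropeptides, 6 were called higher and 8 lower, with a median of -0.30. Neurokinin B (Tac2) had a difference of 2.65 (SE 0.321, adjusted P = 2.17e-06, limma), with signals of 332.1 to 536.3 in the hypothalamus and of 33.5 to 579.8 (median 47.2) in the pag. The 579.8 came from replicate 2 of the A/J pag, made from a single mouse, the next highest pag array had 214.9, and without that array the difference was 2.92. Prodynorphin (Pdyn) was higher by 1.89, neurotensin (Nts) by 1.67, PACAP (Adcyap1) by 1.06 and substance P (Tac1) by 0.65. Cerebellin 1 (Cbln1), a synaptic organizer, was higher by 1.65 with all 3 of its probe sets, and Cbln4 differed by -0.39. Urocortin (Ucn), a relative of Crh made by the Edinger-Westphal nucleus beside the pag, had signals from -2.03 to 36.8 in the hypothalamus and from 50.3 to 234.3 in the pag, a difference of -2.78 (SE 0.234, adjusted P = 1.27e-08, limma). Cholecystokinin (Cck) differed by -0.56, nociceptin (Pnoc) by -0.33 and enkephalin (Penk) by -0.26. Penk was lower in 5 of the 6 strains, and its call was lost after scaling every array to 1 median.

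Of 40 receptors for neuropeptides, 15 were called higher, 3 lower and the median was 0.17, beside 13.5% higher and 14.9% lower over all genes. Npy2r and Npy1r, receptors of neuropeptide Y, were higher by 2.54 (SE 0.159, adjusted P = 1.46e-10, limma) and 1.09 (SE 0.111, adjusted P = 2.18e-07, limma), and the calcitonin receptor Calcr by 1.31 (SE 0.103, adjusted P = 5.14e-09, limma), without overlap. The growth hormone receptor Ghr was higher by 0.996 and the cholecystokinin receptor Cckar by 1.18. Lower were the orexin receptor Hcrtr1 (-1.29, SE 0.172, adjusted P = 7.63e-06, limma), the corticotropin-releasing hormone receptor Crhr1 (-0.62) and the GLP-1 receptor Glp1r (-0.42), whose call did not hold without single arrays such as replicate 1 of the 129S6/SvEvTac hypothalamus (-0.37, adjusted P = 0.0639). Hcrt and its receptor Hcrtr1 thus had opposite signs, while the second receptor, Hcrtr2, was not called (-0.07). The oxytocin receptor Oxtr (0.01), the melanin-concentrating hormone receptor Mchr1 (-0.13), the leptin receptor Lepr (-0.09) and the mu opioid receptor Oprm1 (0.16) were not called, with overlapping arrays. Of 16 nuclear receptors and genes of steroid or thyroid hormone handling, 7 were called higher and 2 lower, with a median of 0.14. The estrogen receptor Esr1 had signals of 131.2 to 200.7 in the hypothalamus and 44.2 to 85.5 in the pag (1.34, SE 0.0786, adjusted P = 5.24e-11, limma), the progesterone receptor Pgr was higher by 0.47, and Hsd11b1, which regenerates active glucocorticoid, differed by -1.01 (SE 0.0753, adjusted P = 2.47e-09, limma).

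Among genes of fast transmission, the GABA-synthesizing enzymes Gad1 and Gad2 were not called (-0.13 and -0.07), nor was the vesicular glutamate transporter Slc17a6 (0.05, SE 0.0462), whose signals were 1168 to 1628 in the hypothalamus and 1228 to 1538 in the pag. Of 23 GABA and glycine genes, 10 were called higher and 5 lower, with a median of 0.20. The GABA-A receptor subunits Gabra5 (1.30, SE 0.0694, adjusted P = 1.27e-11, limma), Gabra2 (1.16), Gabrg1 (0.83) and Gabra4 (0.78) were higher. On the glycine side, the neuronal transporter Slc6a5 had signals of -0.66 to 33.4 in the hypothalamus and 49.1 to 98.7 in the pag (-1.94, SE 0.16, adjusted P = 9.97e-09, limma), the adult receptor subunit Glra1 differed by -1.68 and the glial transporter Slc6a9 by -0.63. Glutamate genes moved less, with 9 of 22 called higher, 6 lower, a median of 0.14 and a range from -0.58 to 0.81. The AMPA receptor subunits Gria1 and Gria2 were higher by 0.55 and 0.49, and Gria4 differed by -0.39. Of 15 acetylcholine genes, 7 were called lower and 1 higher, with a median of -0.39. The vesicular transporter Slc18a3 had signals of 9.82 to 49.8 in the hypothalamus and 76.1 to 229.2 in the pag (-2.61, SE 0.226, adjusted P = 2e-08, limma), and the choline transporter Slc5a7 (-1.74) and the nicotinic subunits Chrna4 (-1.20) and Chrna6 (-1.19) were lower. Chat, the synthesis enzyme of the same neurons, had low signals in both regions (medians 17.1 and 27.8) and was not called (-0.48, adjusted P = 0.148, limma).

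**Figure D3:**
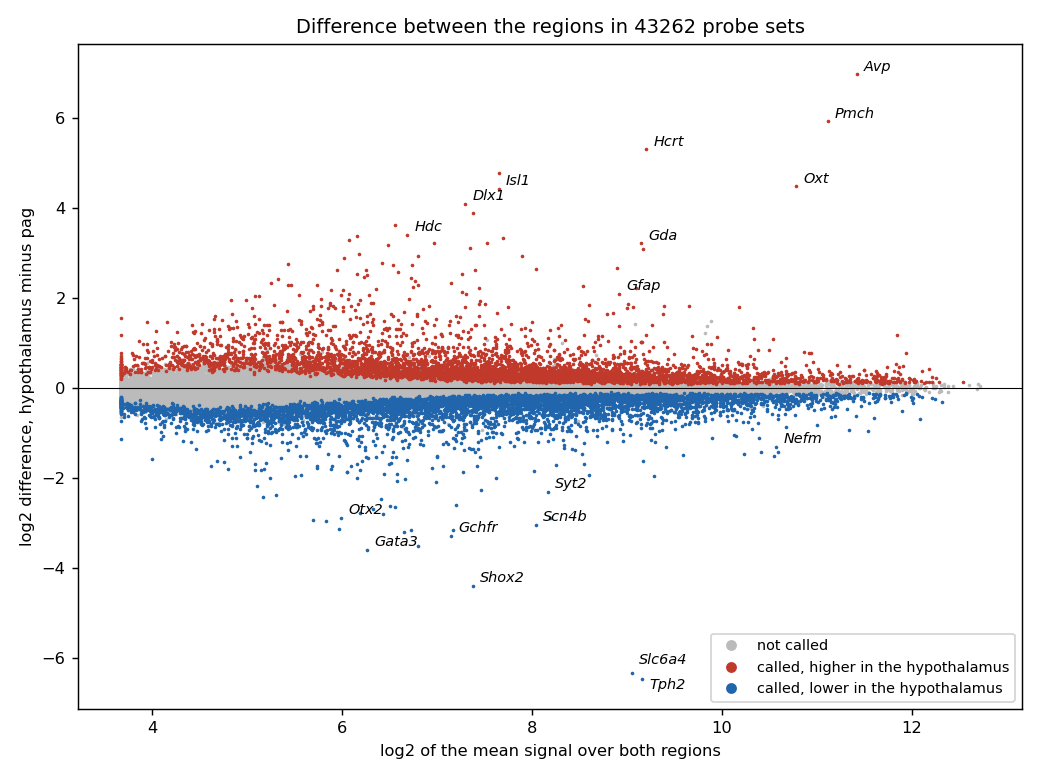
Log2 difference, hypothalamus minus pag, of the 43262 probe sets tested against log2 of their mean signal over both regions, with probe sets called higher in red, called lower in blue and not called in gray. Avp, Pmch, Hcrt and Oxt stand above the cloud, and Tph2 and Slc6a4 below it.

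Genes of large, fast-firing projection neurons and of myelin were lower in the hypothalamus together. Of 14 neurofilament and projection neuron genes, 13 were called lower, 0 higher, 10 without overlap, and the median was -0.95. The neurofilament subunits Nefl, Nefm and Nefh, which set the caliber of large axons, differed by -0.93 (SE 0.0447, adjusted P = 2.02e-12, limma), -1.30 (SE 0.0546, adjusted P = 2.41e-13, limma) and -1.47 (SE 0.0756, adjusted P = 6.38e-12, limma). Nefm had signals of 645.3 to 1100 in the hypothalamus and 1730 to 2535 in the pag. Scn4b, a sodium channel subunit for rapid firing, had signals of 20.3 to 157.3 in the hypothalamus and 273.9 to 676.7 in the pag (-3.04, SE 0.187, adjusted P = 1.09e-10, limma), and the synaptic proteins Syt2 and Vamp1 differed by -2.30 and -1.51 and the calcium buffer Pvalb by -1.95. Of 26 voltage-gated potassium and HCN channel genes, 15 were called lower and 6 higher, with a median of -0.33. Kcng4 (-2.80), the beta subunit Kcnab3 (-2.46), Kcna1 (-1.30), Kcna2 (-0.66) and Hcn2 (-0.95) were lower, as was the fast-firing channel Kcnc1 (-0.66), for which 1 of its 4 probe sets was called higher and 2 lower. Kcna5 was the largest of the higher ones (1.5, SE 0.078, adjusted P = 8.01e-12, limma).

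Oligodendrocyte and myelin genes were called lower for 20 of 22, with 0 higher and a median of -0.63 that lay below 0 in each of the 6 strains (-0.52 to -0.89). The summed signal of the list ranged from 16815 to 23629 in the hypothalamus and from 24615 to 30170 in the pag, without overlap. Myelin-associated glycoprotein (Mag) had signals of 400.0 to 840.8 in the hypothalamus and 1034 to 1574 in the pag (-1.12, SE 0.076, adjusted P = 5.79e-10, limma), the gap junction protein Gjb1 differed by -1.37, Mog by -0.92 and the lineage factors Olig1 and Olig2 by -0.30 and -0.34. The 2 members that were not called were Mbp (-0.08) and Qk (-0.19), and of the 8 probe sets of Mbp, 5 were called lower and 1 higher. Precursor genes did not follow, with 4 of 11 called higher and 1 lower and a median of 0.04. Pdgfra, the receptor that marks the precursors, was higher by 0.52 (SE 0.0565, adjusted P = 5.12e-07, limma). Klk6, a myelin-associated protease outside the lists, differed by -2.60 (SE 0.177, adjusted P = 5.79e-10, limma).

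Astrocyte markers went in both directions, with 5 of 18 called higher, 9 lower and a median of -0.12. Gfap, the intermediate filament of astrocytes, had signals of 700.6 to 1956 (median 919.7) in the hypothalamus and 146.5 to 500.8 (median 274.3) in the pag. All 3 of its probe sets were called higher, and the difference was 1.83 (SE 0.14, adjusted P = 3.24e-09, limma). The glutamate transporter Slc1a3 was higher by 0.85 with all 6 probe sets, whereas its counterpart Slc1a2 was not called (0.04). The water channel Aqp4 differed by -0.43 and the metabolic genes Acsbg1 and Aldh1l1 by -0.44 and -0.30. After scaling each array to 1 median, 4 of the markers were called lower in place of 9. Among 17 markers of tanycytes and ependymal cells, 3 were called higher and 6 lower, beside 13.5% and 14.9% of all genes. Gpr50, an orphan receptor of tanycytes and the dorsomedial nucleus, was at the floor on all 12 pag arrays, had signals of 88.8 to 184.3 in the hypothalamus and was at least 10.5-fold higher (adjusted P = 5.41e-15, limma). The ciliary genes Foxj1, Ccdc153, Tmem212 and Dynlrb2 of ependymal cells were lower, by -0.85, -0.87, -0.90 and -0.47. Cfap126 (-0.07), Enkur (-0.03) and Spag16 (-0.495) were not called. In DBA/2J, Foxj1, Ccdc153 and Tmem212 had their largest differences (-1.43, -1.58 and -1.62). The median of the list was -0.80 in DBA/2J and -0.30 to 0.02 in the other strains.

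Imprinted genes, which are expressed from 1 parental copy, were called higher for 15 of 24, with 0 lower and a median of 0.35. Asb4 had signals of 187.3 to 305.0 in the hypothalamus and 47.8 to 91.9 in the pag (1.80, SE 0.0967, adjusted P = 1.3e-11, limma). Magel2, a gene of the Prader-Willi region, was higher by 1.16 (SE 0.0589, adjusted P = 5.48e-12, limma), its neighbor Ndn by 0.42, Plagl1 by 1.09 and the Notch relative Dlk1 by 0.99. Necdin (Ndn) and Peg3 (0.16) were small differences on high signals, and Snrpn, Gnas and Meg3 were not called. Calcr belongs to this list and to that of the receptors. Other genes outside the lists were among the largest. Hdc, the enzyme that makes histamine in the tuberomammillary nucleus, had signals of 134.8 to 251.0 in the hypothalamus and -5.61 to 35.3 in the pag (3.41, SE 0.184, adjusted P = 1.32e-11, limma). Sytl4, which regulates hormone granule release, was higher by 3.91 (SE 0.179, adjusted P = 9.72e-13, limma), and the guanine deaminase Gda by 3.22 (SE 0.0943, adjusted P = 5.42e-16, limma).

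The strain medians of the meningeal and fibroblast genes had the widest spread of all lists (standard deviation 0.765). No member had a strain by region interaction at an adjusted P under 0.05 (limma's F test). All 12 measured were called higher, with a median of 1.38, and the summed signal of the list was 3163 to 11092 (median 7781) in the hypothalamus and 2493 to 4330 (median 3853) in the pag. The lowest hypothalamus array was replicate 2 of 129S6/SvEvTac, inside the pag range, and the highest was replicate 2 of FVB/NJ, made from a single mouse. Replicate 1 of the hypothalamus gave 6441 in 129S6/SvEvTac and 9113 in FVB/NJ. By strain the median of the list ran from 0.48 in 129S6/SvEvTac to 2.72 in FVB/NJ. Osteoglycin (Ogn), a matrix protein, had signals of 24.9 to 455.0 (median 167.0) in the hypothalamus and 15.3 to 44.4 (median 21.8) in the pag, with a difference of 2.75 (SE 0.32, adjusted P = 1.29e-06, limma) that was 0.87 in 129S6/SvEvTac and 4.21 in FVB/NJ. Igf2, a growth factor of the meninges, was higher by 1.84 (SE 0.188, adjusted P = 2.07e-07, limma) and was the member without overlap. Of the 20 genes with the largest higher signal, Ogn and Fmod belong to this list. The part of such cells in other differences was not tested.

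Pituitary hormone signals also varied by array. Gh, growth hormone, ranged from 13.4 to 5421 in the hypothalamus and from 2.10 to 4235 in the pag and was not called (1.49, SE 1.05, adjusted P = 0.344, limma). The highest were replicate 1 of the C57BL/6J hypothalamus, whose replicate 2 had 13.4, and replicate 1 of the FVB/NJ pag, whose replicate 2 had 281.0. Cga, the shared subunit of the glycoprotein hormones, had signals from -16.6 to 567.1 (median 432.8) in the hypothalamus and from -5.31 to 487.4 (median 1.77) in the pag. It was called higher (3.23, SE 0.606, adjusted P = 0.000414, limma), was at the floor on both 129S6/SvEvTac hypothalamus arrays and on 10 of the 12 pag arrays, and without replicate 1 of the FVB/NJ pag the difference was 3.64. Of 11 pituitary genes, 2 were called higher (Cga and Tshb) and 0 lower, beside 13.5% and 14.9% of all genes. The summed signal of the list was 2006 to 9116 in the hypothalamus and 2050 to 7918 in the pag. Tshb, the thyrotropin subunit, had a difference of 1.18 (adjusted P = 0.0264, limma), and its call was lost in 8 of 43 alternatives, with the highest adjusted P without the strain A/J (0.77, adjusted P = 0.171). Fshb and Ghrhr stayed near the floor in both regions, with medians of 4.54 and -3.65 in the hypothalamus and -4.79 and -3.68 in the pag.

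**Figure D4:**
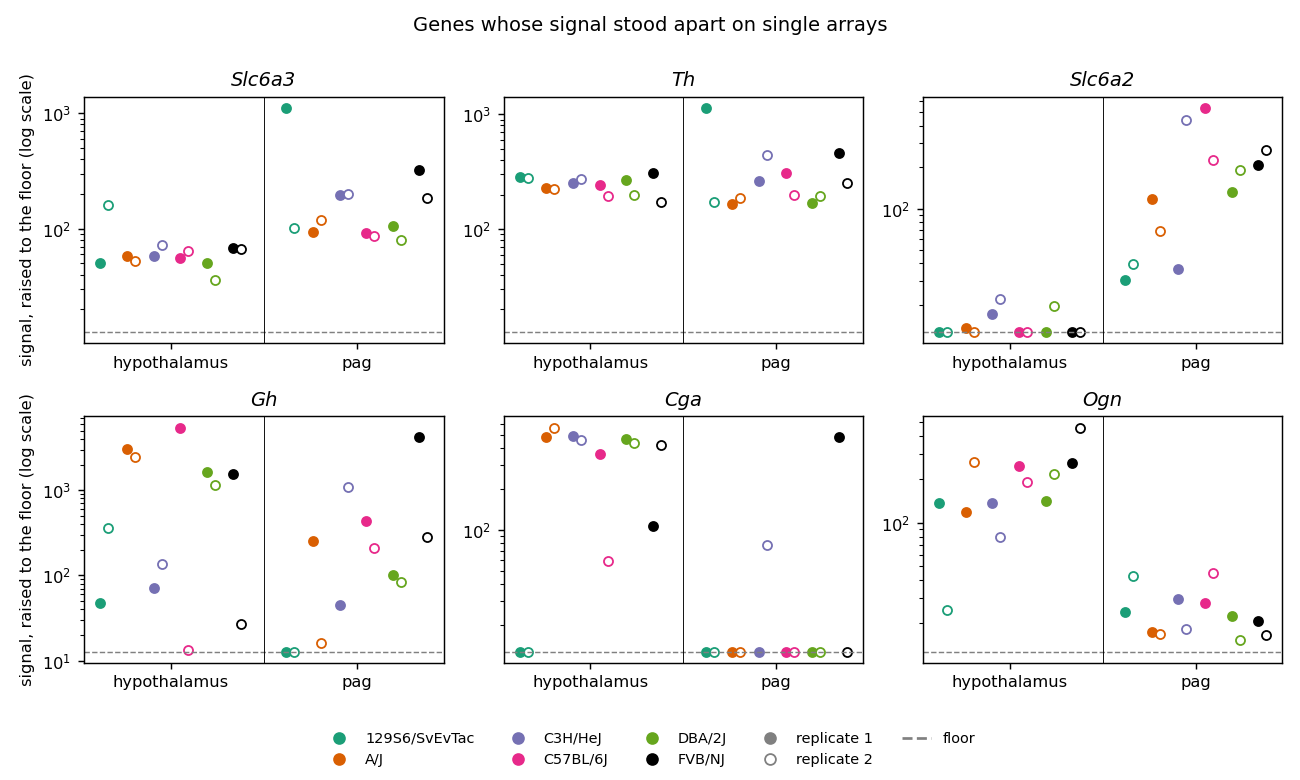
Signal (log scale, floor dashed) of 6 genes on each hypothalamus array (left of the line) and each pag array (right), ordered and colored by strain, with replicate 1 filled and replicate 2 open. Slc6a3 and Th stood apart on replicate 1 of the 129S6/SvEvTac pag, Gh and Cga were highest among the pag arrays on replicate 1 of FVB/NJ, Slc6a2 spread widely over the pag arrays, and Ogn was lowest among hypothalamus arrays on replicate 2 of 129S6/SvEvTac.

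Over all probe sets, 9918 of 43262 were called (14609, or 33.8%, had an unadjusted P under 0.05), 4748 higher and 5170 lower in the hypothalamus (47.9% and 52.1% of the calls). After scaling each array to 1 median the split was 4818 higher and 3130 lower (60.6% and 39.4%). By gene, with 1 probe set for each of 17730 genes, 2400 (13.5%) were called higher and 2650 (14.9%) lower. Most differences were small, since 3221 of the higher and 3419 of the lower calls were under 0.5 on the log2 scale, and 593 calls (1.37% of those tested) exceeded 2-fold, 359 higher (0.830%) and 234 lower (0.541%). The arrays of the regions did not overlap in 942 probe sets (2.18%), and in 440 of them every hypothalamus array was above every pag array and in 502 below. Differences over 16-fold were found in 7 probe sets that were higher and 3 that were lower, of which Avp, Pmch, Hcrt, Oxt, Isl1 and Dlx1, and Tph2, Slc6a4 and Shox2, name 1 gene.

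The 6 strains agreed in direction for most of the differences. Of the 9918 called probe sets, 7060 (71.2%, or 16.3% of those tested) had the same sign in all 6 strains, 3337 higher (7.71%) and 3723 lower (8.61%), while 2584 agreed in 5 strains, 268 in 4 and 6 in 3 strains. Of the 593 over 2-fold, 573 (96.6%) had 1 sign in all 6. The strains enter the fit that made the calls, so their agreement is a description. By strain, the share of called probe sets whose own difference had the sign of the mean was 97.5% in C57BL/6J, 96.4% in A/J, 96.2% in 129S6/SvEvTac, 95.8% in C3H/HeJ, 92.4% in FVB/NJ and 90.8% in DBA/2J. Avp differed by 6.52 in 129S6/SvEvTac to 7.45 in DBA/2J, Oxt by 4.13 in 129S6/SvEvTac to 4.79 in A/J, Tph2 by -6.70 in C3H/HeJ to -6.21 in A/J and Gata3 by -3.80 in A/J to -3.34 in C57BL/6J. Wider ranges were those of Hcrt, 4.44 in 129S6/SvEvTac to 5.86 in C57BL/6J, and of Slc6a2, -4.76 in C57BL/6J to -1.44 in 129S6/SvEvTac. No gene of the lists had a strain by region interaction at an adjusted P under 0.05, and for Hcrt and Slc6a2 it was 0.76 and 0.575 (limma).

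**Figure D5:**
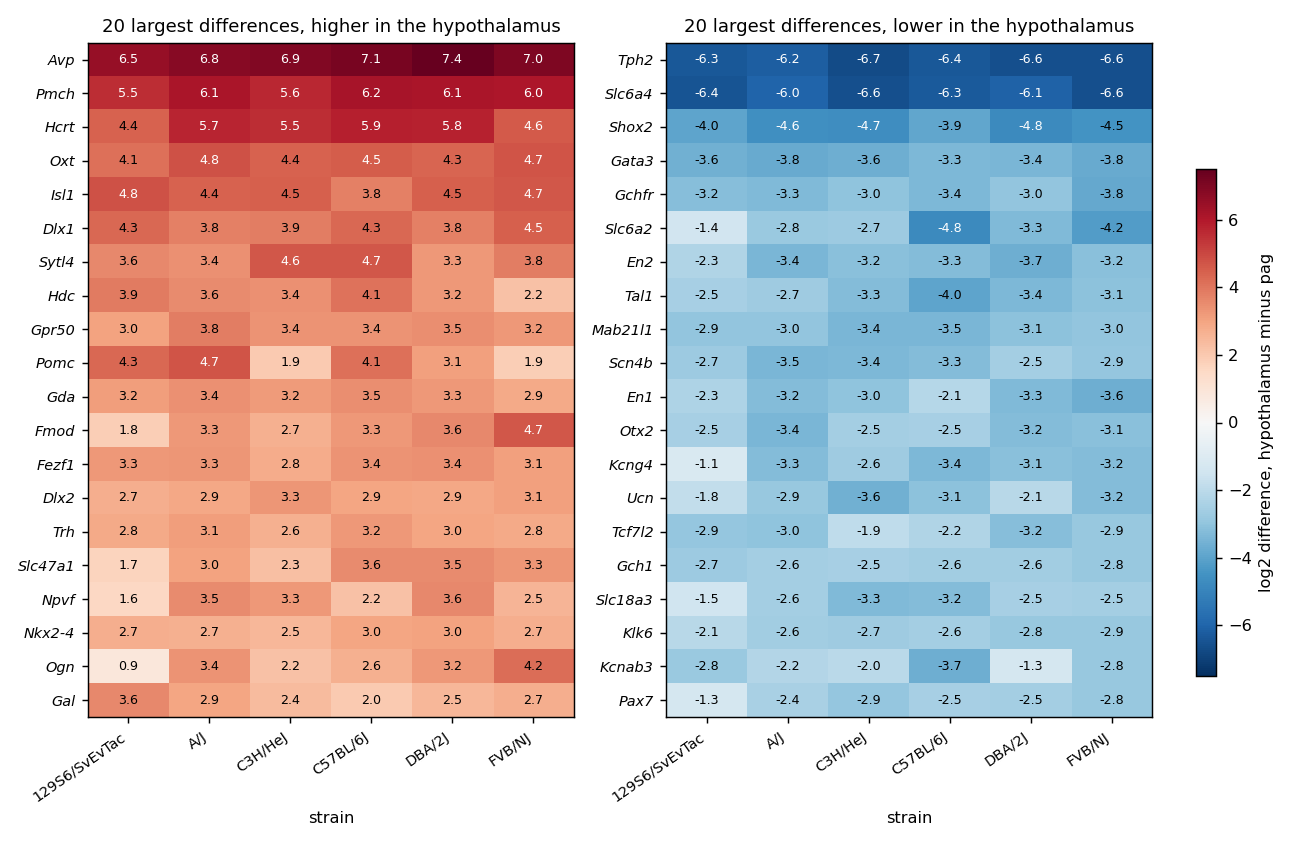
Log2 difference, hypothalamus minus pag, in each of the 6 strains (columns) for the 20 genes with the largest higher (left) and the 20 with the largest lower difference (right), chosen among called probe sets with 1 sign in all strains, so that the common sign follows from the choice. Avp lay between 6.52 and 7.45 and Tph2 between -6.70 and -6.21, while Slc6a2 and Ogn varied more.

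The difference depended on the strain, by limma's F test over 12 group means, in 58 probe sets (0.134% of those tested), beside 4252 (9.83%) at an unadjusted P under 0.05. With 2 arrays for each strain and region this count was unstable. It was 14 without replicate 2 of the FVB/NJ pag and 1469 without replicate 1 of the 129S6/SvEvTac hypothalamus. Dnajc7, a co-chaperone, had differences of -1.23 in C3H/HeJ and 1.35 in DBA/2J (interaction adjusted P = 0.0101, limma) and kept its call under all 31 alternatives. Rtn4, which encodes the neurite growth inhibitor Nogo, differed by -1.37 in A/J and by 0.51 in DBA/2J (interaction adjusted P = 0.015, limma). Lrat, the acyltransferase that stores retinol, was higher by 2.77 in A/J and 3.09 in C3H/HeJ, and by 0.00 in 129S6/SvEvTac and C57BL/6J. A difference of 0 is also what arrays at the floor give, and it does not show equal levels.

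The other regions of the series place the largest differences. For the 20 genes with the largest higher signal in the hypothalamus, the bnst mean lay within the range of the hypothalamus arrays for 5, within that of the pag arrays for 6 (1 gene in both) and between the ranges for 10, and the hippocampus mean lay within the pag range for 12. Avp averaged 1642 in the bnst and 27.1 in the hippocampus, Pmch 2562 and 72.6, and Hdc 5.0 and -3.16. The pituitary mean lay within the hypothalamus range for 3, within the pag range for 8, between the ranges for 4 and below both for 3. It was above both for 2, Sytl4 (1251) and Pomc (8893). For the 20 with the largest lower signal, the bnst mean lay within the range of the hypothalamus arrays for 15 and the hippocampus mean for 17. Tph2 averaged 5.73 in the bnst and 8.65 in the hippocampus. The bnst mean of the other 5 lay elsewhere. Shox2, which averaged 852.6 in the bnst, and Tcf7l2, which averaged 248.4, were above the ranges of the hypothalamus and of the pag. Otx2 (105.9) and Scn4b (302.9) were within the pag range, and Kcnab3 (65.7) was between the ranges. The pituitary mean of these 20 genes lay within the hypothalamus range for 13 and within the pag range for 1. It was between the ranges for 3, below both for 2 and above both for 1, Pax7 (305.1).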

How the data were processed

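RNA was pooled from dissected tissue and hybridized to Affymetrix mouse genome 430 2.0 arrays. The authors made the deposited intensity values in TeraGenomics as background-corrected, globally scaled signals on a linear scale; its version and scaling target are not given in the sources used here. The methods describe the arrays of a group as independent animals or pools, and P values measure only the spread between these samples. Of the values of 45037 probe sets, 5.36% were below 0.

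Signals were set to a floor of 12.78 (the 20th percentile of all 61 arrays) and log2 was taken. Then limma 3.58.1 in R 4.3.3 was fitted to the 24 arrays (lmFit with strain and region, eBayes with trend, 17 residual degrees of freedom) over the 43262 probe sets above the floor on at least 1 array, with Benjamini-Hochberg adjustment and a threshold of 0.05. The 1775 probe sets at the floor on all 24 arrays were not tested, and 64 control probe sets were left out. The dependence on strain was an F test over 12 group means. Precision is limited by having 12 arrays in each region. The fits were tested on simulated data.

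The platform annotation named 1 gene for 34945 probe sets, several for 932 and none for 9160. The genes named are the 20 most different ones each way among those called and of 1 sign in all 6 strains, by the probe set with the largest difference, the genes with the smallest interaction P or with opposite strain differences, and members of 32 lists (528 genes measured), each taken from its brightest probe set on average over the 24 arrays. Exceptions named outside these rules were chosen after their values were seen. The members and lists were chosen with earlier results of these data known. Alternatives were other floors, scalings, sample sets and models, and each array or strain left out. Tables and figures were made with Python 3.11.15, pandas 2.3.3, numpy 2.4.6 and matplotlib 3.10.9. Present calls were not used.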

Additional observations from a re-analysis of the deposited data

Results flagged for a closer look

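The difference between hypothalamus and pag depended on the strain, at an adjusted P under 0.05 of limma's F test, in 18 named genes that met the rule for naming. Each value rests on 2 arrays for each strain and region, and the cause was not tested. Ttc28 (adjusted P = 0.00887) differed by 1.14 on the log2 scale in C3H/HeJ and by -0.48 in DBA/2J. Scyl2 (0.00887) differed by -1.53 in FVB/NJ, by -0.04 in A/J and by 0 in the other strains. Arrays that are all at the floor give a difference of 0, so such a value does not show equal levels. Dnajc7 (0.0101) had -1.23 in C3H/HeJ and 1.35 in DBA/2J. At an adjusted P of 0.015 each, Cend1 had -1.23 in C3H/HeJ and 0.12 in FVB/NJ, Rtn4 -1.37 in A/J and 0.51 in DBA/2J, Gprc5b -1.59 in A/J, Dnm3 -1.57 in C3H/HeJ and 0.39 in DBA/2J, Lrat 3.09 in C3H/HeJ, Tns1 -1.5 in C3H/HeJ and 0.51 in DBA/2J, Trappc3 -1.08 in C3H/HeJ and 0.78 in DBA/2J, and Map1lc3a -1.71 in A/J and 0.83 in FVB/NJ. At 0.0289, Dpp8 had -1.53 in A/J and 1.09 in FVB/NJ, Tnpo2 -1.61 in C3H/HeJ and 0.92 in DBA/2J, and Anks1b -1.37 in C3H/HeJ and 1.10 in DBA/2J. At 0.0313, Aebp2 had 2.53 in DBA/2J and -1.34 in FVB/NJ, and Dclk1 -1.82 in A/J and 1.97 in FVB/NJ. Zdhhc17 (0.0348) had -1.59 in A/J and 1.44 in FVB/NJ, and Pdap1 (0.0477) had -1.03 in C3H/HeJ and 0.91 in DBA/2J.

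Dnajc7 kept its call under all 31 alternatives, with a highest adjusted P of 0.0447. The call of Ttc28 and of Tns1 was lost under 1 alternative, that of Rtn4 and Lrat under 2 and that of Dnm3 under 3, in none of these 5 by leaving out a single array. Scyl2 lost its call under 3 of 30 alternatives, Cend1 under 4, Gprc5b and Map1lc3a under 5 and Trappc3 under 6. The calls of Aebp2, Anks1b and Tnpo2 were lost under 14 alternatives, of Dpp8 under 16, of Dclk1 under 18 and of Pdap1 and Zdhhc17 under 22, mostly by leaving out single arrays.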

How the results depend on the processing

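Up to 43 settings were compared for 559 entries, each a gene, or a probe set for Fmod, Gch1, Pomc and Tcf7l2, which had 2 each. Of these, 341 were called. Among the called, 265 kept the call in every alternative that tested them, 76 lost it in some and 0 changed sign. Of those not called, 75 changed sign in some. Some entries were below the floor on all arrays of a setting and not tested there, as Nr0b1, which had 41 alternatives. Leaving out each array in turn gave 8818 to 10932 called probe sets and 581 to 622 over 2-fold. After scaling each array to 1 median, 3130 probe sets were called lower and the arrays did not overlap in 500. The count over 2-fold was 842 with the floor at the 10th percentile and 399 at the 40th, which follows from the floor. The replicate block left 9197 calls. Deviations of same-numbered arrays from their group means had r = 0.385 in 129S6/SvEvTac and -0.222 to 0.0441 in the other strains. With 2 arrays in a group, these values cannot show whether same-numbered arrays shared mice.

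The count of probe sets whose difference depended on the strain was 58. It was 146 with the floor at the 40th percentile, 8 after scaling to 1 median, 507 over all 61 arrays, 15 by ordinary regression on the signals, 34 with the replicate block, 217 among probe sets with a mean over 4 times the floor, and 147 without the 3 arrays that correlated least with their region, an alternative chosen after seeing the data. Leaving out 1 array gave 14 (without replicate 2 of the FVB/NJ pag) to 1469 (without replicate 1 of the 129S6/SvEvTac hypothalamus). The cause was not tested. Low signals limit the size of a difference, since those under the floor have no order.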

Other observations

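Gene lists of other neurons are given beside the shares over all genes, 13.5% called higher and 14.9% called lower. Of 14 markers of cortical and hippocampal excitatory neurons, 7 were called higher in the hypothalamus and 1 lower, with a median of 0.47. Dendrin (Ddn) was higher by 2.62, with a highest signal of 866.1 on replicate 2 of the FVB/NJ hypothalamus, and by 2.48 without that array. The synaptic proteins Nrgn (1.41) and Camk2a (1.38) were also higher, and the member called lower was the factor Neurod2 (-0.80). The cortical factors Tbr1 (0.49, adjusted P = 0.126, limma) and Neurod6 (-0.18, adjusted P = 0.139) were near the floor. Of 8 striatal markers, 4 were called higher and 1 lower (median 0.24), led by the receptor Gpr6 (2.08). Of 9 cerebellar markers, 2 were called higher and 1 lower (median 0.03). The calcium buffer Calb1 had signals of 1631 to 2019 in the hypothalamus and 389.3 to 645.5 in the pag (1.80, SE 0.0571, adjusted P = 2.45e-15, limma), and Ppp1r17 was higher by 2.35. Of 12 thalamic markers, 2 were called higher and 3 lower (median -0.12).

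Of 16 circadian clock genes, 8 were called higher and 0 lower (median 0.20), among them Hlf (0.57), Npas2 (0.65), Cry1 (0.48) and Arntl (0.35). The calls of Per1 (0.227) and Ciart (0.285) were lost in 27 and 25 of 43 alternatives. Without the 3 arrays that correlated least with their region, 6 clock genes were called higher and 1 lower. The hour of dissection of each array was not used. Of 17 immediate early genes, 2 were called higher and 2 lower (median 0.23), with Fosl2 at 0.80. Of 14 microglia markers, 6 were called higher and 0 lower (median 0.24), with C1qc at 0.54 and Ctss at 0.32. Of 17 endothelial and pericyte markers, 1 was called higher and 7 lower (median -0.19), with Flt1 at -0.38. Of 11 choroid plexus markers, 3 were called higher and 2 lower (median -0.15). Among these, Kl (1.76) and Clic6 (1.18) were higher, while transthyretin (Ttr) was not called (-0.93, adjusted P = 0.213, limma) with replicate 1 of the 129S6/SvEvTac hypothalamus at 1121 and was called lower without it (-1.26, adjusted P = 0.0461). Of 5 red blood cell genes, 2 were called higher and 0 lower (median -0.08). Of 12 housekeeping genes, 3 were called higher and 2 lower (median 0.07), and Actb differed by 0.07 (adjusted P = 0.519, limma).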
